A study of Mus musculus with 42 samples.

Results

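In the pooled peak list of open chromatin from euploid hippocampal neurons, 8557 of 15521 regions (55.1%) were annotated as proximal promoter, and these promoter peaks were described. They were chosen by that annotation alone, with no measured value in the choice, and the middle of each lay within 250 bp of a transcription start site. They belonged to 8154 genes, and 93.2% of them to protein-coding ones. The study made 42 libraries from mice of 3 genotypes. These were euploid animals, Ts65Dn (which carry an extra copy of distal chromosome 16 and of the centromeric end of chromosome 17) and Ts65Dn;Brwd1+/- (trisomic animals with 1 disrupted copy of the chromatin reader gene Brwd1). Trisomic mothers had been crossed to Brwd1+/- fathers, whose mutant allele is Brwd1 repro5, and all groups shared a mixed background. Open chromatin was assayed by ATAC-seq in NeuN-positive nuclei, which hold every neuronal type, sorted from the hippocampus of adult males with 3 libraries per genotype. SMARCA2/4 binding was assayed by ChIP-seq in whole hippocampus, which holds glia as well as neurons, of males aged 6 to 8 weeks. Each genotype had 4 such libraries and 4 of input, each replicate pooling tissue from 2 animals. RNA-seq came from primary neurons cultured from forebrain at embryonic day 16, labelled as pooled from both sexes (3 libraries per genotype). For ATAC-seq and ChIP-seq the data held 1 pooled peak list per genotype, so no replicate error exists for any value from them, and none of their differences was tested.

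A promoter is the stretch around a transcription start site where RNA polymerase II and the general transcription factors assemble. The transposase used in ATAC-seq inserts into DNA that nucleosomes leave free, so reads pile up at active promoters and enhancers, and the fold enrichment of a peak is its pile-up over the local background. Many mammalian promoters lie in CpG islands, stretches rich in G, C and the CpG dinucleotide, and these serve mainly broadly expressed genes. SMARCA2 and SMARCA4 are the alternative ATPases of the BAF complex, which slides and evicts nucleosomes at promoters and enhancers.

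The sequence just upstream of the start site is shown for the strongest promoter peaks, to let the elements described further on be seen in place. Each window lay inside its peak, ended at the base before the start site and held no annotated exon (mm10, strand of the gene). Capitals mark matches to any of the 13 motifs named with the motif counts, on either strand. The windows were chr8:57511757-57511906 for Hmgb2, chr7:128611178-128611327 for Inpp5f, chr1:163779433-163779582 for Kifap3, chr8:116993538-116993687 for Gcsh, chrX:164076494-164076643 for Siah1b and chr10:91082790-91082939 for Ikbip. Gcsh and Siah1b lie on the minus strand and the others on the plus strand.
Hmgb2: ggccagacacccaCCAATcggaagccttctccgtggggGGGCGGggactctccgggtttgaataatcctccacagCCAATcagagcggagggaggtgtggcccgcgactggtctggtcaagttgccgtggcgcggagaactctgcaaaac
Inpp5f: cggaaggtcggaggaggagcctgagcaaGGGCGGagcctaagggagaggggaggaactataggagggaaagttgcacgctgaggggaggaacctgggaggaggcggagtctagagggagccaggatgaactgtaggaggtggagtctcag
Kifap3: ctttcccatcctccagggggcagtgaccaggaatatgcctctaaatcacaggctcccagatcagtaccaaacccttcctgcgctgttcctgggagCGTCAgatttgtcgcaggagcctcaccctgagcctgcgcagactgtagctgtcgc
Gcsh: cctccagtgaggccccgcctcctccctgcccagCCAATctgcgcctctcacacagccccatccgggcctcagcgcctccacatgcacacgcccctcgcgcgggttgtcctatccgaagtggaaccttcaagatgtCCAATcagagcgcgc
Siah1b: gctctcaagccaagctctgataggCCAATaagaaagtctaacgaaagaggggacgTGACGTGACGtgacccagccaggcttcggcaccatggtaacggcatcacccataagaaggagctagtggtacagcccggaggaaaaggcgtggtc
Ikbip: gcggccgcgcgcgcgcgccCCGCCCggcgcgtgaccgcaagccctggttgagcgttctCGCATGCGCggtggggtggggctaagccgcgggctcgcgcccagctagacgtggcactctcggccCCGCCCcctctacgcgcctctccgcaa

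Hmgb2 and Gcsh each held 2 CCAAT boxes, Hmgb2 with a GC box between them, Ikbip held 2 GC boxes and an NRF1 site, and Siah1b held a CCAAT box and 2 adjacent cores of the cyclic AMP response element. The same kind of window is shown for the strongest protein-coding promoter of some gene groups treated further on. These are Gria2 (chr3:80802836-80802985), Btg2 (chr1:134079121-134079270), Smarca4 (chr9:21616019-21616168), Cry2 (chr2:92434044-92434193) and Hist1h2ak (chr13:21753828-21753977), with Psma7 (chr2:180042434-180042508), the promoter with the strongest SMARCA2/4 peak. Smarca4 lies on the plus strand and the others on the minus strand.
Gria2: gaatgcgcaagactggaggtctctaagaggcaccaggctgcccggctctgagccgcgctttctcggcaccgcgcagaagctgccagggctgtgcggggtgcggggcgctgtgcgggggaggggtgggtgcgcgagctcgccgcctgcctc
Btg2: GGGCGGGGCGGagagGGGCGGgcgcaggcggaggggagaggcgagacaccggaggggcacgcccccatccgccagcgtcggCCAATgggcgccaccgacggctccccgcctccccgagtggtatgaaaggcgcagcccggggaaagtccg
Smarca4: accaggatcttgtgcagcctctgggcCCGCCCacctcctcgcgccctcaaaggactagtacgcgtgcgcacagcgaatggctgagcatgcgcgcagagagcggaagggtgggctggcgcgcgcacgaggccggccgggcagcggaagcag
Cry2: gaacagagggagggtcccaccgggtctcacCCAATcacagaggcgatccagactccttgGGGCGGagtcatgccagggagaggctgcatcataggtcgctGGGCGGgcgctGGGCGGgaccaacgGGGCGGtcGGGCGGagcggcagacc
Hist1h2ak: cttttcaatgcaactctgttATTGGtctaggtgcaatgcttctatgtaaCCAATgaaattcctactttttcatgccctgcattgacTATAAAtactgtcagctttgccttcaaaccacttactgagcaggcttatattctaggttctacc
Psma7: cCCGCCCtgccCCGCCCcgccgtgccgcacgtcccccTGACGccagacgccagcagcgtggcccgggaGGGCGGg

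The Cry2 window carried 5 GC boxes and the Btg2 window 3. The histone gene Hist1h2ak carried a TATA box whose first base lay at -64 from the start site, with 2 CCAAT boxes upstream of it. The Gria2 window held no match to any of the motifs, which says only that these letters were not in it.

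Promoter peaks were stronger and wider than the other peaks of the same list. Their fold enrichment had a median of 4.51 (quartiles 3.71 and 5.49, range 2.06 to 12.5), against 3.64 in 2624 gene body peaks and 3.79 in 2372 peaks between genes. Their median width was 424 bp (quartiles 299 and 585), against 267 and 273.5 bp. The strongest peaks of the list were nevertheless elsewhere, since the maximum was 17.5 in gene bodies and 28.8 between genes. Within the promoter peaks, strength and width went together (Spearman's rho 0.586 over 8557 peaks of 1 list, a description of that list). Most peaks sat slightly upstream of the start, with a median offset of -16 bp (quartiles -70 and 25), 60.5% of middles upstream, and 95.4% of peaks covering the start itself.

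**Figure D1:**
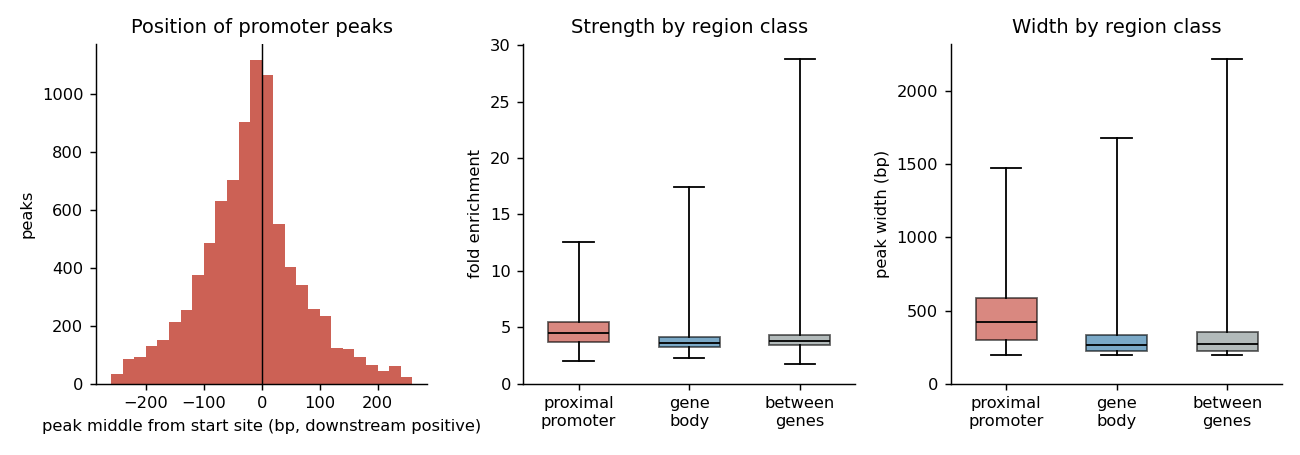
Left, number of promoter peaks by distance of the peak middle from the start site in 20 bp bins. Middle and right, fold enrichment and width (bp) by region class, with boxes from the lower to the upper quartile, a line at the median and whiskers to the lowest and highest value. The promoter medians, 4.51 and 424 bp, lie above those of the other plotted classes, while the highest single values lie outside promoters.

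The 10 strongest promoter peaks belonged to genes of varied function. The highest fold enrichment, 12.5, lay at chr16:11143884-11144367, over Gm23935, a 57-base annotated miRNA gene inside the protein-coding gene Zc3h7a on the other strand. It was 13.8 in the Ts65Dn and 9.16 in the Ts65Dn;Brwd1+/- list. Next came Rbm25, a splicing factor gene, at 10.6, with 10.1 and 8.37 in the trisomic lists. Hmgb2, which encodes an HMG-box chromatin protein, followed at 10.4, and the phosphoinositide phosphatase gene Inpp5f at 10.1. Kifap3 (the adaptor of kinesin-2), Gcsh (a subunit of the glycine cleavage system), Mbd1 (a reader of methylated CpG), Ppp1r12b (a regulatory subunit of myosin phosphatase), Siah1b (a ubiquitin ligase) and Ikbip lay between 9.47 and 9.83. Only 81 promoter peaks exceeded a fold enrichment of 8. The widest was that of Gpbp1, a factor that binds GC-rich promoters, with 1476 bp, ahead of 1700064H15Rik (1473 bp), the transcription factor gene Prdm10 (1419 bp), the DNA repair gene Rmi1 (1412 bp) and Hnrnph1, an RNA-binding protein gene (1383 bp).

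Most genes had a single promoter peak. One peak was found for 7765 genes, 2 for 376, 3 for 12 and 4 for 1 gene, Ank2, which encodes the adaptor ankyrin B and has several alternative starts. Its peaks had fold enrichments of 3.07, 4.08, 6.13 and 3.83 in the order of their coordinates on chromosome 3. Among the 12 with 3 peaks were Map2 (dendritic microtubules) and Pde4d (a cyclic AMP phosphodiesterase), picked for mention after their counts were seen. The 3 Pde4d peaks had values of 2.96, 4.19 and 4.68. A promoter peak was present for 34.8% of 21755 protein-coding genes (Wilson 95% interval 34.2 to 35.4). An antisense start within 1 kb upstream, the arrangement of a bidirectional promoter, was annotated for 13.5% of protein-coding genes with a promoter peak (12.7 to 14.3) and for 8.14% of those without (7.70 to 8.60).

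Gene groups differed in how many of their genes carried a promoter peak, to be read beside the 34.8% over all protein-coding genes. Housekeeping groups were well covered, with 68 of 79 cytosolic ribosomal protein genes, 56 of 80 genes of oxidative phosphorylation, 31 of 43 proteasome genes, 47 of 77 mitochondrial ribosomal protein genes and 9 of 12 RNA polymerase II subunits. Rpl15 (7.37), Sdha (7.80), Psma2 (7.21), Mrpl17 (7.22) and Polr2b (5.38) had the highest fold enrichments of these groups. The circadian clock was represented by 10 of 12 genes, led by Cry2 (6.26) and Per2 (5.28), which encode repressors of the clock. Of the 26 BAF subunits, 19 had a promoter peak, among them both ATPases, Smarca4 (7.49) and Smarca2 (6.02). None of 1092 olfactory receptor genes did. Of 67 replication-dependent histone genes, which are transcribed in S phase and lie in clusters of near-identical copies, 28 carried one.

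Markers of cell types bore on the NeuN label. Glutamatergic markers had a promoter peak for 7 of 12 genes, namely Camk2a, Gria1, Gria2, Grin1, Grin2b, Neurod6 and Nrgn, and pan-neuronal markers for 6 of 12 (Map2, Nefl, Nefm, Snap25, Syt1 and Tubb3). Hippocampal subfield markers had one for 5 of 12 genes, with Calb1 (5.76) and Wfs1 (5.29) the strongest. None of 12 GABAergic interneuron markers and none of 12 astrocyte markers had one. Peaks of the other lists included those at Ugt8a of the oligodendrocyte list (3.35), Slc2a1 of the endothelial list (3.83) and Aif1 of the microglial list (3.20). The Aif1 peak had no partner in either trisomic list. These 3 values were below the promoter median of 4.51, but so was the median of the glutamatergic peaks, 3.71. The median was 4.51 for the pan-neuronal peaks and 4.67 for the subfield markers. Syt1, the calcium sensor of synaptic vesicle fusion, was the strongest of the pan-neuronal list at 7.21. Of 17 immediate early genes, which respond to neuronal activity, 12 had a peak, with a median of 3.17 and Btg2 at 5.02 the strongest. Gria2, a subunit of AMPA receptors, stood at 4.90.

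The promoter peaks were CpG-rich. Over 300 bp around the peak middle the median GC content was 66.3%, against 51.3% in gene body peaks and 51.0% between genes. The ratio of observed to expected CpG was 0.848, against 0.254 and 0.267, and it exceeded 0.6 in 87.7% of promoter peaks, 6.06% of gene body peaks and 10.7% of those between genes. The annotation rule used no sequence.

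Motifs were counted as exact matches on both strands of that 300 bp window and set beside gene body peaks and beside all 32851 RefSeq promoter windows of the same length (GRCm38.p6). The GC box (GGGCGG), bound by SP factors, stood in 74.0% of promoter peaks, 13.5% of gene body peaks and 35.7% of RefSeq promoters. The ETS site (CCGGAAG) stood in 20.1%, 1.98% and 8.86%, the NRF1 site (GCGCATGCG) in 4.00%, 0.724% and 1.75%, and the YY1 site (AAGATGGCG) in 4.24%, 0.114% and 1.40%. The EGR site (GCGNGGGCG), which can overlap a GC box, stood in 13.9%, 1.07% and 5.55%. These elements of broadly active promoters were thus all more frequent in the promoter peaks than in either comparison. The cyclic AMP response element (TGACGTCA) had shares of 3.95%, 0.800% and 1.79%, its core (TGACG, also inside the full element) 37.6%, 15.6% and 20.8%, the ZBTB33 site (TCTCGCGAG) 1.72%, 0% and 0.676%, and the E-box CACGTG 10.6%, 5.95% and 7.15%. The other direction was seen for 3 motifs. The AP-1 site (TGANTCA) was in 3.24% of promoter peaks but in 18.1% of gene body peaks, with 7.81% of RefSeq promoters, the TATA box (TATAAA) in 2.72%, 9.22% and 13.6%, and the MEF2 site in 2.24%, 4.73% and 3.69%. The CCAAT box (CCAAT) was about as frequent in all, at 37.7%, 31.9% and 37.4%. These short strings match by composition alone, and a match is no evidence of binding.

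SMARCA2/4 binding in euploid hippocampus overlapped 2758 of the 8557 promoter peaks by at least 1 bp (32.2%, Wilson 95% interval 31.2 to 33.2, which covers counting error only). The share was 28.8% in gene body peaks (27.1 to 30.5) and 40.1% in the 1292 peaks annotated as promoter out to 1 kb (37.5 to 42.8). The peaks out to 1 kb had that share at a median width of 306.5 bp, below the 424 bp of promoter peaks, and were not counted in fixed windows. Between promoter and gene body peaks, width bore on the difference. In windows of a fixed 500 bp around the peak middle, 33.5% of promoter peaks and 34.3% of gene body peaks (32.5 to 36.1) met a SMARCA2/4 peak. Among promoter peaks the share was higher in wider peaks, by quartile of width, from 21.2% in the narrowest to 46.4% in the widest, and it varied less by quartile of strength, from 30.01 to 34.2%. Peaks with a SMARCA2/4 overlap had a median width of 495 bp and those without 394 bp, with fold enrichments of 4.61 and 4.48.

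SMARCA2/4 peaks were densest on and next to the promoter peaks, with a shallow dip at the peak middle. Per 1000 promoter peaks, 61.2 and 63.3 SMARCA2/4 middles fell in the pair of 100 bp bins at the peak middle, against 67.2 in each of the bins from 100 to 300 bp upstream and 71.9 and 71.8 from 100 to 300 bp downstream. The profile was lopsided, with 21.5 from 500 to 600 bp upstream and 39.0 at the same distance downstream of the middle in the sense of transcription. Gene body peaks showed no such dip, with 82.3, 82.7 and 83.5 per 1000 in the bins from 100 bp upstream to 200 bp downstream. Extending each peak by 1 kb on both sides brought a SMARCA2/4 peak to 49.7% of promoter peaks and 40.4% of gene body peaks. SMARCA2/4 peaks were narrow, with a median of 106 bp on promoter peaks, and the rank correlation of their own strength with that of the ATAC peak was weakly negative (Spearman's rho -0.07 over 2758 peaks of 1 list, a description).

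**Figure D2:**
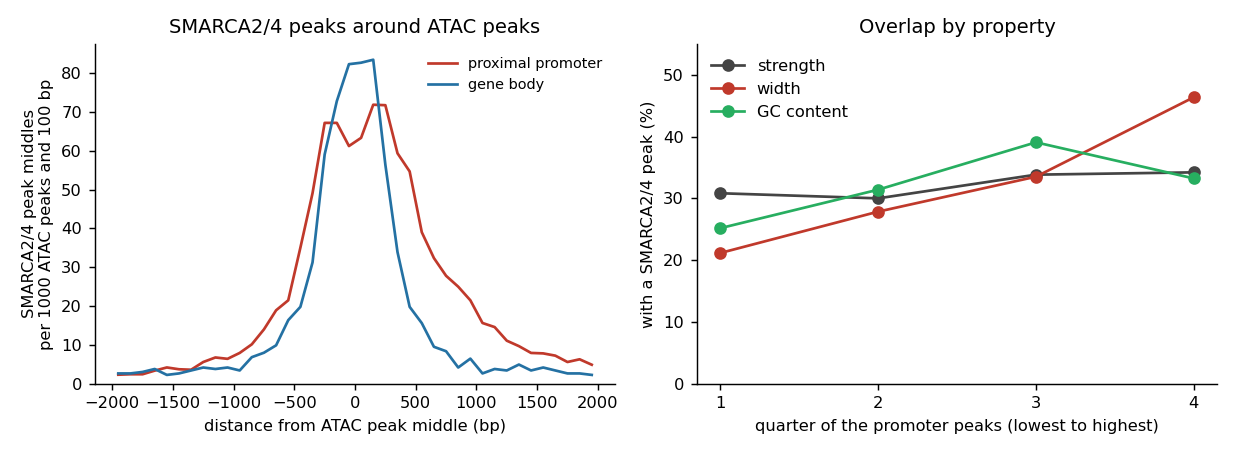
Left, number of SMARCA2/4 peak middles per 1000 ATAC peaks in each 100 bp bin around the ATAC peak middle, oriented by the strand of the annotated gene, for promoter and gene body peaks of the euploid lists. Right, percentage of promoter peaks with a SMARCA2/4 peak in each quartile of the peaks by strength, width or GC content. Width separates the quartiles most, from 21.2 to 46.4%, and the promoter profile dips at the centre.

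The strongest SMARCA2/4 peak on a promoter lay at Psma7, a proteasome subunit gene, with a fold enrichment of 8.45 over input, on an ATAC peak of 4.07. Irf2bp2 (a transcriptional co-regulator, 7.21), Nt5c2 (a nucleotidase, 7.03), Hnrnph3 (an RNA-binding protein, 7.03), Kifc3 (a kinesin, 6.93), Itm2b (a membrane protein, 6.59), Myh9 (non-muscle myosin, 6.53) and Faim2 (an inhibitor of cell death, 6.43) followed. Of these 8, the ATAC peaks of Hnrnph3 (5.74) and Myh9 (4.97) exceeded the promoter median. Among marker genes, 5 of 7 glutamatergic genes with a promoter peak had a SMARCA2/4 peak on it, as did 4 of 6 pan-neuronal genes, among them Gria2 (4.43) and Syt1 (5.78). It was 3 of 8 for synaptic vesicle genes, 1 of 5 for hippocampal subfield markers and 1 of 9 for RNA polymerase II subunits. Over all promoter peaks the share was 32.2%. The count was 9 of 19 for the BAF subunits, Smarca4 and Smarca2 among them, and 22 of 69 promoter peaks of cytosolic ribosomal protein genes.

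Overlap with SMARCA2/4 also varied with motif and chromosome. Promoter peaks with an AP-1 match overlapped in 41.2% of cases (35.5 to 47.0, 114 of 277), against 31.9% without (30.9 to 32.9), although their median width was smaller, 372 against 426 bp. Peaks with an EGR match did so in 36.7% (34.0 to 39.4). The share was lower with an ETS match, 26.2% (24.2 to 28.3) against 33.7% without, and with an NRF1 match, 23.98% (19.8 to 28.8) against 32.6%. On the X chromosome 3 of 185 promoter peaks had a SMARCA2/4 peak (1.62%, 0.553 to 4.66), and only 33 of all 22667 euploid SMARCA2/4 peaks (0.146%) lay there, beside 1.55% of ATAC peaks. In the shorter trisomic SMARCA2/4 lists the X chromosome held 0.853% of peaks in Ts65Dn (11 peaks) and 0.694% in Ts65Dn;Brwd1+/- (13 peaks). The low share thus applied to the whole euploid list, and its origin was not tested.

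The trisomic SMARCA2/4 lists were far shorter, with 1290 peaks in Ts65Dn and 1873 in Ts65Dn;Brwd1+/-, and touched 89 (1.04%) and 134 (1.57%) of the promoter peaks. Of the peaks in each list, 15.3% (14.8 to 15.8) lay on a euploid promoter peak in the euploid list, 7.13% (5.85 to 8.67) in Ts65Dn and 7.37% (6.27 to 8.64) in Ts65Dn;Brwd1+/-. The lists differ in stringency, since 87.8, 31.8 and 58.2% of their peaks had a q-value under 0.05 in the same order. With only such peaks (and a fold over 1.2), 18 promoter peaks were touched in Ts65Dn and 75 in Ts65Dn;Brwd1+/-, and the shares of peaks on a promoter peak were 15.6% (15.1 to 16.1), 4.63% (2.99 to 7.12) and 7.16% (5.77 to 8.84). Promoters that stood in all 3 lists numbered 17, and they included Psma7 (8.45 in the euploid list, then 6.45 and 6.90 in the trisomic lists in the same order), Camk2b, a subunit of a synaptic kinase (5.12, 5.03 and 5.00), and Ybx1, an RNA-binding protein gene (4.77, 11.7 and 8.40). These 3 were picked after their values were seen. At Psma7 and Camk2b the euploid value was the highest of the 3, and at Ybx1 the lowest.

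Nearly every euploid promoter peak was present in the trisomic ATAC lists. A Ts65Dn peak overlapped 8472 of the 8557 (99.0%, Wilson 95% interval 98.8 to 99.2) and a Ts65Dn;Brwd1+/- peak 8461 (98.9%, 98.6 to 99.1), and 8409 had both. For gene body peaks these shares were 93.8% and 93.5%. The trisomic lists were about as long as each other, 29195 and 30244 peaks, and longer than the euploid list of 15521, so the comparison favours finding a partner. With each list reduced to its strongest 15521 peaks, 87.9% of promoter peaks had a partner in Ts65Dn and 84.4% in Ts65Dn;Brwd1+/-, against 65.7% and 60.6% of gene body peaks. The partner peaks were wider than the euploid ones in 90.3% and 91.1% of cases, with medians of 642 and 646 bp. In Ts65Dn, 202 single peaks spanned 406 promoter peaks that were separate in the euploid list.

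The 85 promoter peaks with no Ts65Dn partner were weak and narrow, with a median fold enrichment of 3.18 and a median width of 224 bp. The strongest were those of Adamtsl1, a gene for an extracellular matrix protein (4.39, and 3.77 in Ts65Dn;Brwd1+/-), Gm26870 at the start of the assembled chromosome 9 (4.29), Reps2, which acts in endocytosis (4.29), and Rasal2, a RAS GTPase activating protein gene (4.19, and 4.19 in Ts65Dn;Brwd1+/-). Gxylt2, a xylosyltransferase gene (4.06, and 2.90), Gm23514 (3.87, and 3.44), Gm6345 (3.87, and 3.94) and the desmosome gene Dsp (3.77) came next. Of these 8, Gm26870, Reps2 and Dsp had no partner in Ts65Dn;Brwd1+/- either, and neither did 33 promoter peaks in all. Of the 85, none lay above the promoter median of 4.51.

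Fold enrichments of partnered promoter peaks kept their order across the lists, with a Spearman's rho of 0.817 between euploid and Ts65Dn, 0.833 between euploid and Ts65Dn;Brwd1+/- and 0.869 between the trisomic lists (8409 peaks, as a description). The level was shifted. The median log2 ratio over euploid was 0.31 in Ts65Dn (quartiles 0.17 and 0.46) and 0.07 in Ts65Dn;Brwd1+/- (-0.07 and 0.20). With each list divided by its own median fold enrichment these became 0.25 and 0.22, so the distance between the trisomic lists depends on the scaling. Both comparisons share the euploid list. The same shift was present outside promoters, with 0.30 and 0.06 in gene body peaks and 0.30 and 0.07 over all peaks, so the promoter peaks moved with the lists as a whole. The Ts65Dn ratio fell from 0.41 in the weakest to 0.21 in the strongest quartile of euploid fold enrichment, values that the choice of peaks on the euploid list bears on. With promoter peaks taken from the Ts65Dn list in place of the euploid one the median was 0.30.

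A change of over 1.5 times was counted against the share over all euploid peaks with a partner. In Ts65Dn, 921 promoter peaks (10.9%) were higher by that much, beside 11.6% of all peaks, and 0 were lower, beside 0.00666%. After division by the median ratio of all peaks, 124 were higher (1.46%, all peaks 1.71%) and 27 lower (0.319%, all peaks 0.446%). In Ts65Dn;Brwd1+/-, 177 were higher (2.09%, all peaks 2.57%) and 4 lower (all peaks 0.121%), and after division by the median ratio 131 were higher (1.548%, all peaks 1.85%) and 10 lower (all peaks 0.241%). In each of these counts the promoter share lay near or under that of all peaks.

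The largest ratios of Ts65Dn over euploid, among promoter peaks of at least the median strength, were found at Zfp174 (4.71 in the euploid list, then 8.91 in Ts65Dn and 6.08 in Ts65Dn;Brwd1+/-, with a log2 ratio of the former pair of 0.92) and at Dnm1l, a mitochondrial fission GTPase (5.13, 9.68 and 6.54, log2 ratio 0.92). Papd4 (a poly(A) polymerase, 0.88), Eif2ak1 (a stress kinase that inhibits translation, 0.87), Zfp119a (0.87), Zscan22 (0.87), Myo1d (an unconventional myosin, 0.85) and Zfp287 (0.84) followed. In all 8 the Ts65Dn;Brwd1+/- value, as deposited, lay between the others, and with each list divided by its own median it did so in all but Zscan22, where it was the highest (1.15, 2.00 and 2.10 in the same order of lists). These 8 were picked for a high Ts65Dn value against euploid, which by itself favours a lower value in any other list. The order is thus no measure of recovery. The smallest ratios were those of Panct2, a non-coding gene (4.67, 3.33 and 3.77, log2 ratio -0.49), and Hmgb2 (10.4, 7.70 and 8.88, -0.43). Then came Gzmk (a granzyme, -0.37), Lrr1 (-0.37), Dusp19 (a phosphatase, -0.36), Syp (-0.34), Ascl4 (-0.34) and Armcx2 (-0.33). Syp encodes synaptophysin, a synaptic vesicle protein, and its peak stood at 5.04, 3.98 and 5.12. Only the Ts65Dn value was low, and the peak was picked for that value.

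Of the 8 largest ratios, 4 belonged to zinc finger genes (Zfp174, Zfp119a, Zscan22 and Zfp287), which led to a count over all promoter peaks whose gene symbol starts with Zfp, Zkscan, Zscan or Znf and a number. This list was drawn up after those ratios were seen. Its 202 promoter peaks had a median euploid fold enrichment of 4.49 and a median log2 ratio of 0.41 in Ts65Dn (quartiles 0.25 and 0.59, 200 with a partner) and 0.15 in Ts65Dn;Brwd1+/- (0.01 and 0.33). The other promoter peaks had medians of 0.31 and 0.06. A rise of over 1.5 times in Ts65Dn was seen in 51 of the 200 (25.5%), against 10.5% of the others, and after division by the median ratio in 5 (2.50%), against 1.44%. The 4 peaks that prompted the list are among the 202 and among the 51. The counts are therefore a description and no independent support, and they were not repeated without those 4.

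**Figure D3:**
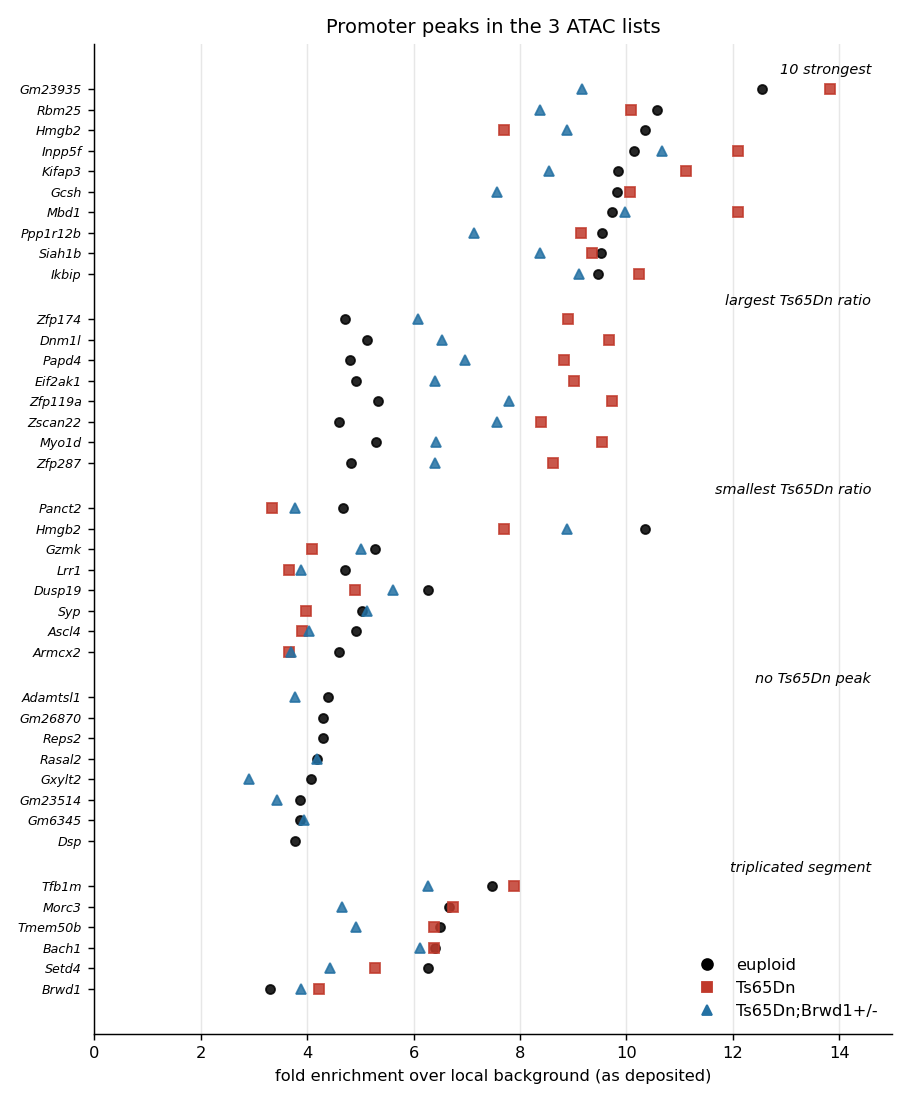
Fold enrichment over local background, as deposited, of the promoter peaks named in the text (rows) in the euploid (circles), Ts65Dn (squares) and Ts65Dn;Brwd1+/- (triangles) lists, 1 pooled list each and so without error bars. A missing symbol means no overlapping peak. Squares lie to the right of the other symbols at the largest ratios and to the left at the smallest, groups that were picked by the Ts65Dn ratio.

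The triplicated segment was taken as chromosome 16 from 84717576 and chromosome 17 up to 8986648, and held 63 promoter peaks of 62 genes. Where the local background lies on the same copies of the segment as the peak, an extra copy raises both, so fold enrichment was not read as copy number. How the background was set for each peak is not known, and the effect of copy number on these values was not tested. The median log2 ratio of these peaks was 0.18 in Ts65Dn (quartiles 0.08 and 0.30), against 0.31 outside the segment and 0.37 in the 547 promoter peaks on the rest of the same chromosomes. In Ts65Dn;Brwd1+/- it was -0.12 (-0.24 and -0.01), against 0.07. With each list divided by its own median, the segment had 0.11 in Ts65Dn and 0.04 in Ts65Dn;Brwd1+/-, against 0.25 and 0.22 outside, so it stayed below other promoters while the sign in Ts65Dn;Brwd1+/- changed. Tfb1m, a mitochondrial transcription factor gene, stood at 7.47 in the euploid list, 7.89 in the Ts65Dn list and 6.26 in that of Ts65Dn;Brwd1+/-. Morc3 (6.66, 6.73 and 4.66), Tmem50b (6.49, 6.38 and 4.91), Setd4 (6.28, 5.28 and 4.43) and Bach1, a repressor of oxidative stress genes (6.40, 6.38 and 6.11), had their lowest deposited value in Ts65Dn;Brwd1+/-, whereas after division by the list medians that of Bach1 was the highest (1.59, 1.52 and 1.70). The promoter peak of Brwd1 itself was weak, at 3.30, 4.21 and 3.88, and 219 bp wide in the euploid list. On the X chromosome the medians were higher than on autosomes, 0.40 against 0.31 in Ts65Dn and 0.22 against 0.06 in Ts65Dn;Brwd1+/-.

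**Figure D4:**
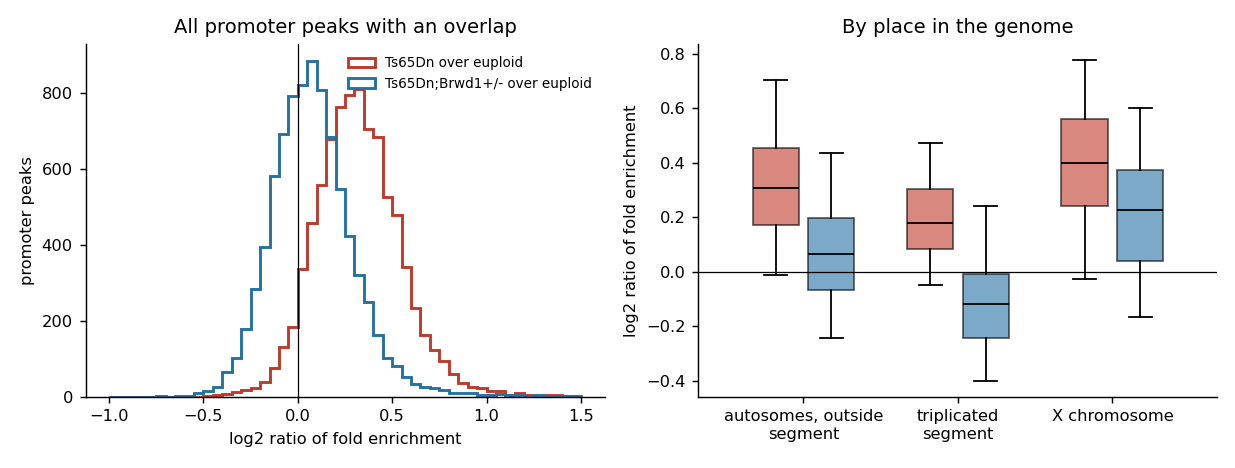
Left, number of promoter peaks by log2 ratio of fold enrichment over euploid. Right, the same ratios for autosomes outside the triplicated segment, the segment and the X chromosome, with Ts65Dn in red and Ts65Dn;Brwd1+/- in blue, boxes over the quartiles, a line at the median and whiskers at percentiles 5 and 95. The segment medians, 0.18 and -0.12 on deposited values, are the lowest of the 3 places, and the latter is 0.04 with each list divided by its own median.

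Synaptic and neuronal promoters varied around the common shift. Grin1 (3.85, 5.43 and 4.16 in euploid, Ts65Dn and Ts65Dn;Brwd1+/-) and Syn1 (4.79, 6.30 and 5.62) were above it in Ts65Dn, with log2 ratios of 0.50 and 0.40. Syt1 (7.21, 7.09 and 7.50), Snap25 (4.62, 4.22 and 4.16) and Calb1 (5.76, 4.84 and 4.61) were below it, with -0.03, -0.13 and -0.25. Calb1 was unlike the other hippocampal subfield markers named by strength, Wfs1 (0.38), Dock10 (0.43) and C1ql3 (0.27), and the median of that list was 0.27. Of the 2 most upstream Map2 peaks, that of the first start had a ratio of 0.37 and that of the second -0.27. The median over a list was 0.25 for 7 glutamatergic peaks, 0.25 for 9 synaptic vesicle peaks, 0.39 for 32 proteasome peaks and 0.11 for 14 immediate early peaks, beside 0.30 for all peaks.

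RNA-seq of the cultures was the only replicated measurement. Its cells are embryonic forebrain cultures and not adult hippocampal neurons, so gene levels were set beside the promoter peaks only as a second readout of the same genes. Of 8154 genes with a promoter peak, 7770 (95.3%) were expressed highly enough to be tested, and of protein-coding genes 98.5% with and 47.7% without one. Level per exon length (RPKM) over the 3 euploid libraries had a median of 7.81 in tested genes with a promoter peak, against 1.98 in tested genes without, and the separate libraries gave 7.74, 7.77 and 7.87 against 1.97, 1.93 and 2.03. Every euploid library thus showed the higher level. Among genes with a peak, its strength and RNA level had a Spearman's rho of -0.00341 (over 7767 genes, a description). Genes whose promoter peak overlapped SMARCA2/4 had a median of 8.64 RPKM and the others 7.41.

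Brwd1 was the gene whose copy number the genotypes alter, and was read first. Its count scaled to library size (CPM) was 93.2, 85.9 and 89.2 in the euploid libraries and 129, 126 and 125 in the Ts65Dn ones, which did not overlap. It was 145, 146 and 124 CPM in the libraries labelled Ts65Dn;Brwd1+/-. In Ts65Dn against euploid this was a rise of 0.50 on the log2 scale (SE 0.08), with an adjusted p of 0.000787 by the quasi-likelihood test of edgeR. The libraries labelled Ts65Dn;Brwd1+/- thus did not have less Brwd1 RNA than Ts65Dn as a group. Counts per gene do not tell RNA of the mutant allele from the rest, so this alone need not go against the label. Those libraries also held Xist at 1409 to 1982 CPM, against 0.526 to 1.12 in the other 6, which had Y-linked RNA although the labels describe both sexes in every culture. No comparison was made with those libraries, which entered the filter, the scaling and the estimate of spread, and Ts65Dn was compared with euploid. Without them the Brwd1 rise was 0.47.

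Ts65Dn and euploid cultures differed broadly. Of 17173 genes tested, 25.6% were higher and 21.1% lower in Ts65Dn at an adjusted p under 0.05. Of 7770 genes with a promoter peak, 1714 (22.1%) were higher and 1894 (24.4%) lower, close to those background shares, with a median log2 fold change of 0.00 against 0.04 for all genes. Among genes with a promoter peak, 6 of 7 glutamatergic markers, 4 of 6 pan-neuronal markers and 8 of 8 synaptic vesicle genes fell and none rose. Over the whole lists, 9 of 12 pan-neuronal and 9 of 12 glutamatergic markers fell. Of 12 GABAergic markers 10 fell and 1 rose, with a median log2 fold change of -1.64 and a summed level of 656 to 696 CPM in euploid and 146 to 278 in Ts65Dn. The summed level of the pan-neuronal list was 4911, 4522 and 3985 CPM in euploid and 2604, 2297 and 1072 in Ts65Dn. Replicate 3 of Ts65Dn stood apart, with the lowest neuronal sums and a mean chi-square per gene against the other Ts65Dn libraries of 49.9 and 26.7, where that pair gave 13.7 and euploid pairs 11.98 to 15.3. Each library was left out in turn, and the counts by list in those fits were added after seeing the data. Without replicate 3 of Ts65Dn the median log2 fold change of the pan-neuronal list went from -1.21 to -0.85 and 9 of 12 still fell. Among genes with a promoter peak, 6 of 7 glutamatergic, 4 of 6 pan-neuronal and 8 of 8 synaptic vesicle genes fell without it, and 1 pan-neuronal gene rose. Without replicate 2 of euploid the synaptic vesicle count was 6 of 8. Replicates 1 and 2 of Ts65Dn also lay below every euploid library in the neuronal sums. Of the oligodendrocyte list, 3 of 10 tested genes rose and 1 fell, with a median log2 fold change of 0.20 and a summed level of 363.5 to 417 CPM in euploid and 614 to 715 in Ts65Dn. Of the list for endothelium and pericytes, 3 of 7 tested genes rose and none fell. Its summed level was 364 to 430 and 900 to 1195 CPM, but its median log2 fold change was -0.05, so the higher sum was not shared by the list as a whole, and its endothelial genes Cldn5, Cdh5, Tek, Esam and Tie1 were too low to be tested. Of 7 microglial markers tested, 1 rose and 2 fell, with a summed level of 26.3 to 35.9 and 43.3 to 53.1 CPM, while P2ry12, Tmem119, Itgam, Trem2 and Spi1 were too low to be tested. Of 11 astrocyte markers tested, 5 rose and 2 fell, and 3 rose when replicate 3 of Ts65Dn or replicate 1 or 2 of euploid was left out. A smaller share of neurons and less RNA per neuron cannot be told apart in these bulk cultures, and their part in the changes of other genes was not tested.

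In the triplicated segment, 44 of 62 genes with a promoter peak rose and 3 fell, with a median log2 fold change of 0.57. Over all genes tested 25.6% rose and 21.1% fell. Mrps6, a segment gene for a mitochondrial ribosomal protein, stood at 36.5, 41.2 and 41.7 CPM in euploid and 113, 110 and 116 in Ts65Dn, a log2 rise of 1.51 with SE 0.07 and an adjusted p of 7.37e-07 in the edgeR fit. It was 1 of the 5 rises with the lowest p among genes that moved by over 2 times.

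The other rises of lowest p were Pcp4l1, a relative of the calmodulin regulator Pcp4, with 6.70, 6.40 and 5.24 CPM in euploid and 57.8, 47.0 and 53.8 in Ts65Dn (log2 fold change 3.11, SE 0.12), Ndrg1, a stress-responsive gene (1.41, SE 0.06), Matn2, a matrix protein gene (2.18, SE 0.10), and Gxylt2 (3.29, SE 0.16). No Ts65Dn library overlapped a euploid one for any of these genes, as for 58.2% of tested genes with a promoter peak and 56.8% of all tested. For Gxylt2 and Ndrg1 the promoter peak had no partner in the Ts65Dn ATAC list of adult neurons. Gxylt2 RNA in culture stood at 11.9, 10.9 and 12.7 CPM in euploid and 98.1, 120 and 130 in Ts65Dn. Such genes moved both ways in culture. Of 67 genes whose strongest promoter peak had no Ts65Dn partner, 58 were tested, of which 18 rose and 11 fell, with a median log2 fold change of 0.06, beside 25.6% and 21.1% of all genes. Reps2 was among those that fell. The largest falls by p were Metap1d, a mitochondrial methionine aminopeptidase gene, with 34.5, 34.1 and 38.4 CPM in euploid and 9.19, 8.15 and 9.09 in Ts65Dn (log2 fold change -2.01, SE 0.09), then Dubr, a non-coding RNA (-1.32, SE 0.10), Adarb2, an RNA-editing enzyme homolog (-1.88, SE 0.16), Kcna3, a potassium channel gene (-1.96, SE 0.16), and Syt13, a synaptotagmin gene (-2.22, SE 0.22). Adjusted p over these 9 genes lay between 3.58e-07 and 4.93e-05 in the same edgeR fit.

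**Figure D5:**
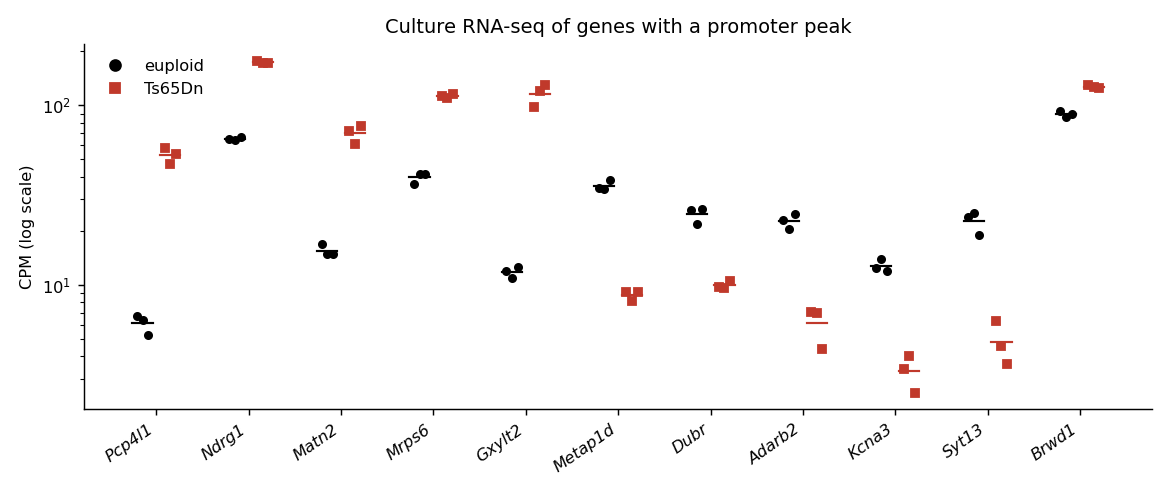
CPM on a log axis in each culture library (points, 3 per genotype) of the 5 genes with a promoter peak and the lowest p in each direction, and of Brwd1, with the mean as a line. Euploid libraries are circles and Ts65Dn libraries squares. The groups do not overlap for any of the 11 genes.

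The ratio of the ATAC peak showed little relation to the change in culture RNA. By quartile of the Ts65Dn ratio, from lowest to highest, 22.98, 21.9, 21.8 and 21.3% of genes were higher and 25.8, 25.2, 23.2 and 23.5% lower in Ts65Dn cultures, with 1928 genes in each. Of genes whose promoter peak overlapped SMARCA2/4, 22.2% were higher and 26.4% lower, and of the others 21.98 and 23.4%.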

How the data were processed

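Peaks had been called by the authors on the mm10 genome with MACS after HISAT2 alignment, removal of duplicates and, for ATAC-seq, shifting and extension of reads, then annotated with a diffReps tool. The deposited fold enrichment is a linear ratio over local background, or over input for ChIP-seq, and each peak has a deposited q-value. How the replicates were pooled is not stated, and depth is unknown for these lists. Peaks were paired by at least 1 shared bp, taking the strongest partner. Shares carry Wilson 95% intervals for counting error only.

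The deposited RNA-seq files hold read counts per gene made by the authors and not normalised, with featureCounts named in the submitters' processing notes although the last lines of each file are of htseq style. Strand use is not given in the sources used here. Lines naming no gene took 37.4 to 40.0% of counts and were left out, which left 17270070 to 25892802 counts per library. Genes kept by filterByExpr were fitted over all 9 libraries with TMM scaling and the quasi-likelihood test of edgeR 4.0.16 (R 4.3.3), with genotype as the only factor, Benjamini-Hochberg adjustment over 17173 genes and a threshold of 0.05. DESeq2 1.42.0, RLE scaling, no filter, fewer libraries and a replicate block were alternatives. Same-numbered euploid and Ts65Dn libraries deviated together (r over genes 0.129, 0.207 and 0.263), which met the rule applied for pairing (every r over 0.1). Replicate 2 of Ts65Dn;Brwd1+/- gave -0.162 with euploid and -0.125 with Ts65Dn. Libraries of unlike number were not compared, so a pairing by number is not established. The main test did not use the numbers, and the replicate block did. The labels do not say that replicates are separate litters, so p-values measure the spread between these libraries. The fit was checked on simulated counts with 200 changed genes.

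Named genes were the 10 strongest and 5 widest peaks, the 8 largest and smallest ratios, the 8 strongest without a Ts65Dn partner, the 8 strongest SMARCA2/4 overlaps, segment members, the strongest of each list, and the 5 lowest p in each direction among changes of over 2 times. Promoter peaks, lists and rules were chosen with earlier results of these data known. Gene starts in the peak lists matched the GENCODE M21 annotation for 95.1% of promoter peaks. Genomic sequence came from GRCm38.p6 and promoter windows from RefSeq.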

Additional observations from a re-analysis of the deposited data

How the results depend on the processing

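No gene named from the RNA-seq test changed direction with a call, while 62 of its recomputed values over all alternatives lost and 25 gained a call. The share of promoter peaks with a SMARCA2/4 peak, 32.2%, was 27.1% when 50% of the narrower peak had to be shared, 29.6% with SMARCA2/4 peaks of q under 0.05 and fold over 1.2 only, 33.3% for promoter peaks at or above the median strength of the list and 33.5% in fixed windows of 500 bp. With lists of the same number of peaks the share with a partner fell from 99.0 to 87.9% in Ts65Dn and from 98.9 to 84.4% in Ts65Dn;Brwd1+/-, and with a fold enrichment of at least 4 it was 94.0% in Ts65Dn;Brwd1+/-. The median log2 ratio of Ts65Dn over euploid, 0.31, became 0.25 with each list divided by its own median, 0.00888 after division by the median ratio of gene body and between-gene peaks and 0.30 for pairs chosen on the Ts65Dn list. That of Ts65Dn;Brwd1+/-, 0.07, became 0.22, -0.00546 (the only reversal) and, for pairs chosen on its own list, 0.0588. The division by other peaks sets their median to 0 by construction.

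Counts of genes with a promoter peak called in culture RNA-seq stayed within 1.5 times of 3608 under every alternative run. They ranged from 2885 to 3494 with 1 library left out, from 1263 to 1593 for rises and from 1548 to 2035 for falls, and were 3759 with the replicate block, 3592 with RLE scaling, 3499 by DESeq2, 3148 without a filter and 3131 without the libraries labelled Ts65Dn;Brwd1+/-. The replicate block changed the call of none of the 10 genes of lowest p or of Brwd1. Where a left-out library left 2 in its group, the fit shared its spread over the others. Unknown depth of the peak lists and a single list per genotype limit every ATAC-seq and ChIP-seq comparison, and what sets the difference in list length was not tested.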

Other observations

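Promoters that carried a peak in both trisomic lists but not in the euploid one belonged to 1474 of 21755 protein-coding genes. They were counted by any peak within 250 bp of an annotated start. By that count 9173 genes (42.2%) had a euploid, 11062 (50.8%) a Ts65Dn and 10880 (50.0%) a Ts65Dn;Brwd1+/- peak. Among the fixed lists the 1474 genes included Rbfox3, the gene of the NeuN antigen, with Elavl4 and Stmn2 of the pan-neuronal list, and Bsn, Cplx1, Cplx2, Sv2a and Unc13a of the synaptic vesicle list. Neurod2 of the glutamatergic list and Calb2 of the GABAergic list were further cases, as were Sox9 and Slc4a4 of the astrocyte list. Lists that are not of cell types held cases as well. They included the BAF subunits Arid1b, Bcl7c, Dpf3 and Smarcc2 and the immediate early genes Egr3 and Nr4a2. The clock gene Npas2 and the RNA polymerase II subunits Polr2k and Polr2l were also among them. In the other direction, 58 genes had a euploid but no Ts65Dn peak. The euploid list was the shortest of the 3, and how far its length accounts for these genes was not tested.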
